A study of Canis lupus familiaris with 32 samples.

Results

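Interleukin receptors are the cell-surface chains through which interleukins act. The genes described here were chosen by name, not by function, and include the decoy IL1R2. They were taken by name from the authors' gene table: every name made of IL, a number and R, plus IL6ST, without the antagonists IL1RN and IL36RN and the decoy IL13RA2. This gave 38 genes of 17107. The table and the array values share no identifier, so a gene was tied to a probe set only where its folds and adjusted p-values equalled those of exactly 1 probe set. Of the 38 genes 24 could be linked in this way, and these have a value in every biopsy. The other 14 are known only through the authors' deposited folds.

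The biopsies came from 8 Maltese-beagle dogs with atopic dermatitis, 5 males and 3 females aged 5.5 to 10.5 years, all sensitized through the skin to the house dust mite Dermatophagoides farinae and chosen because the mite had given them skin lesions before. Skin was taken on the challenged side 6 h, 24 h and 48 h after mite patches and on the control side at 6 h after mineral oil, 1 array per biopsy, so that each of the 4 groups holds the same 8 dogs (32 arrays). The sensitized state is common to all groups, the control included, and mineral oil at 24 h and 48 h was not analysed here, so at these 2 times the allergen and the time since the patch cannot be told apart. The biopsies are whole skin, in which more cells of a type and more RNA per cell cannot be told apart.

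Most interleukin receptors work as complexes of 2 or more different chains. In many of them a private chain recognises the ligand and a shared chain takes part in signalling. Shared chains include the common gamma chain, the common beta chain and gp130, which is encoded by IL6ST. Most such chains activate Janus kinases and STAT proteins, while receptors of the IL-1 family recruit MYD88 and IRAK kinases, and those of the IL-17 family signal through TRAF3IP2. In atopic skin the receptors for IL-4 and IL-13, for IL-31 and for the alarmin IL-33 are the best known, the receptor chain shared by IL-4 and IL-13 being a target of treatment in people.

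Arrays differed in skeletal muscle RNA. The mean of 4 linked muscle markers ran from 3.97 to 10.76 in the control, from 4.32 to 10.71 at 6 h, from 3.15 to 10.13 at 24 h and from 3.38 to 3.71 at 48 h, and 9 arrays rich in muscle lay at 9.74 or more (2 in the control, 5 at 6 h, 2 at 24 h, 0 at 48 h), the other 23 at 7.60 or less. The gap between 3' and 5' actin control probe sets, which widens as RNA degrades, averaged 2.27 in the control (SD 0.32, n = 8 here and after), 2.78 at 6 h (SD 0.48), 2.08 at 24 h (SD 0.37) and 1.79 at 48 h (SD 0.29). Array medians lay between 4.64 and 4.91, the lowest in dog 5 at 24 h. For 19 of the 24 members the signal was above its array's median on at most 6 of the 32 arrays, and for 10 of them on none. No background level was available, so log2 differences are given without a fold, and a small difference in a dim signal is not evidence of a constant transcript level. The exceptions were IL17RC, IL17REL and IL20RA, above the median on all arrays, with IL1RL2 above it on 29 and IL1R1 on 15.

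Few of the linked receptor genes changed against the control, and those that passed were higher after the mite: IL3RA, IL18RAP and IL1R1. At 6 h 0 of 24 members passed in limma, against 2.89% of all probe sets tested (0.275% higher, 2.62% lower). At 24 h 1 member rose, IL18RAP, and 0 fell, against 8.19% of probe sets that passed (2.97% higher, 5.22% lower). At 48 h 3 members rose and 0 fell, against 19.7% of probe sets (10.6% higher, 9.09% lower). Members with an unadjusted p under 0.05 numbered 1 at 6 h, 4 at 24 h and 6 at 48 h, against 16.3%, 21.2% and 30.9% of all probe sets. The 3 rises at 48 h are 12.5% of the members, near the share of probe sets that were higher. The median change of the 24 members was 0.02 at 6 h, 0.05 at 24 h and 0.07 at 48 h, beside 0.01, -0.03 and -0.02 over all probe sets. Calls are limma tests on log2 values with the dog as a block, at an adjusted p of 0.05.

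**Figure D1:**
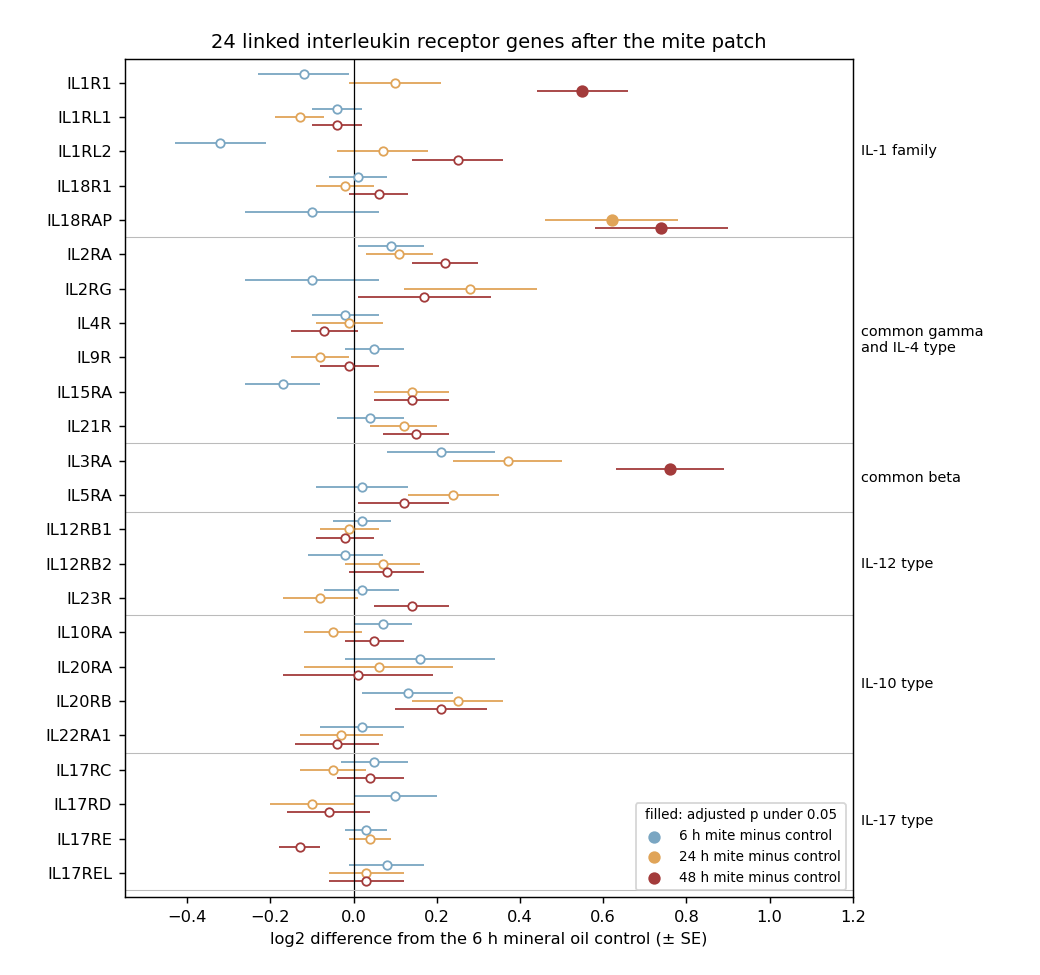
Log2 difference from the 6 h mineral oil control (x axis, with SE) for the 24 linked receptor genes, grouped by family; blue is 6 h, orange 24 h and red 48 h after the mite patch, and filled points passed at an adjusted p of 0.05. The filled points are IL18RAP at 24 h and 48 h and IL3RA and IL1R1 at 48 h, all right of 0.

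IL3RA encodes the alpha chain of the IL-3 receptor, which is high on plasmacytoid dendritic cells and basophils and pairs with the common beta chain. Its log2 signal ran from 4.57 to 5.61 at 48 h (median 4.74), against 3.38 to 4.42 in the control (median 4.12). The groups did not overlap, which held for 1 of the 24 members and 3.49% of all probe sets at 48 h, while at 24 h it held for 0 members and 0.712% of probe sets. The difference was 0.76 (SE 0.13, limma adjusted p = 9.93e-05), and all 8 dogs were higher, by 0.18 to 1.53. The low end of the control was dog 7 at 3.38, with the next dog at 4.08, and dog 6 was the highest at 48 h.

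At 6 h IL3RA read 4.12 to 4.46 (median 4.35), a difference from the control of 0.21 (adjusted p = 0.438), and at 24 h it read 4.17 to 5.22 (median 4.37), a difference of 0.37 (adjusted p = 0.0782) with 5 of 8 dogs higher. The step between 24 h and 48 h was 0.40 and was upward in 8 of 8 dogs, but its adjusted p was 0.106. Weighting the arrays brought the IL3RA step to 0.42 (adjusted p = 0.0462), and leaving out dog 5 at 24 h, a choice made after seeing the data, to 0.48 (adjusted p = 0.05). IL5RA, the alpha chain for the eosinophil cytokine IL-5 and the other member that pairs with the common beta chain, read 2.83 to 3.66 in the control (median 3.10), 2.95 to 3.41 at 6 h (median 3.15), 3.04 to 4.10 at 24 h (median 3.25) and 2.76 to 3.58 at 48 h (median 3.34). It differed by 0.12 at 48 h (95% interval -0.10 to 0.35, adjusted p = 0.49) and passed at no time.

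IL18RAP encodes the accessory chain of the IL-18 receptor, carried by T cells and natural killer cells. Its signal was 3.40 to 4.18 in the control (median 3.88), 3.44 to 4.23 at 6 h (median 3.65), 3.86 to 5.30 at 24 h (median 4.28) and 3.90 to 5.13 at 48 h (median 4.61). Dogs 5 and 7 were far above the others at 24 h, at 5.30 and 5.22, and the ranges at both late times overlapped the control. It rose by 0.62 at 24 h (SE 0.16, adjusted p = 0.0138) and by 0.74 at 48 h (SE 0.16, adjusted p = 0.00138), higher in 8 of 8 dogs at each. The authors' deposited table gives IL18RAP a fold of 1.5 at 24 h, which did not pass there (adjusted p = 0.066). These values match a plain linear model that has neither the dog nor limma's moderated estimate of the spread. In limma without the dog as a block the 24 h rise of IL18RAP still passed. The deposited fold of IL18RAP at 48 h was 1.7 (adjusted p = 0.01).

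From 24 h to 48 h IL18RAP differed by 0.11 (adjusted p = 0.816), with 5 dogs up and 3 down. Its partner IL18R1, the ligand-binding chain, read 1.79 to 2.52 and was above the array median on 0 of 32 arrays. IL18R1 differed by 0.06 at 48 h (95% interval -0.09 to 0.22), which in so dim a signal does not show a constant transcript level. The rise at 24 h no longer passed without the 9 muscle-rich arrays (0.58, adjusted p = 0.0704), without dog 4 or without dog 7, whereas the 48 h rise passed in all 19 alternative settings in which the gene was tested, as did that of IL3RA.

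IL1R1 encodes the signalling receptor for IL-1 alpha and IL-1 beta, found on keratinocytes, fibroblasts, endothelium and leukocytes. It read 4.28 to 4.99 in the control (median 4.81), 4.33 to 4.79 at 6 h (median 4.67), 4.31 to 5.44 at 24 h (median 4.82) and 4.84 to 5.61 at 48 h (median 5.34). At 48 h dog 8 alone lay inside the control range. The rise at 48 h was 0.55 (SE 0.11, adjusted p = 0.000456), seen in 8 of 8 dogs. Once the actin gap entered the model, the difference was 0.33 (adjusted p = 0.0585). The difference from the control was 0.10 at 24 h (adjusted p = 0.635), and the step from 24 h to 48 h was 0.44 (SE 0.11, adjusted p = 0.0206, 7 of 8 dogs), a comparison in which 1 of 24 members and 2.56% of all probe sets passed (2.37% higher). That step did not pass without the dog as a block (adjusted p = 0.0751), without the muscle-rich arrays (0.46, adjusted p = 0.0756), or without dog 1, 3, 4 or 5.

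**Figure D2:**
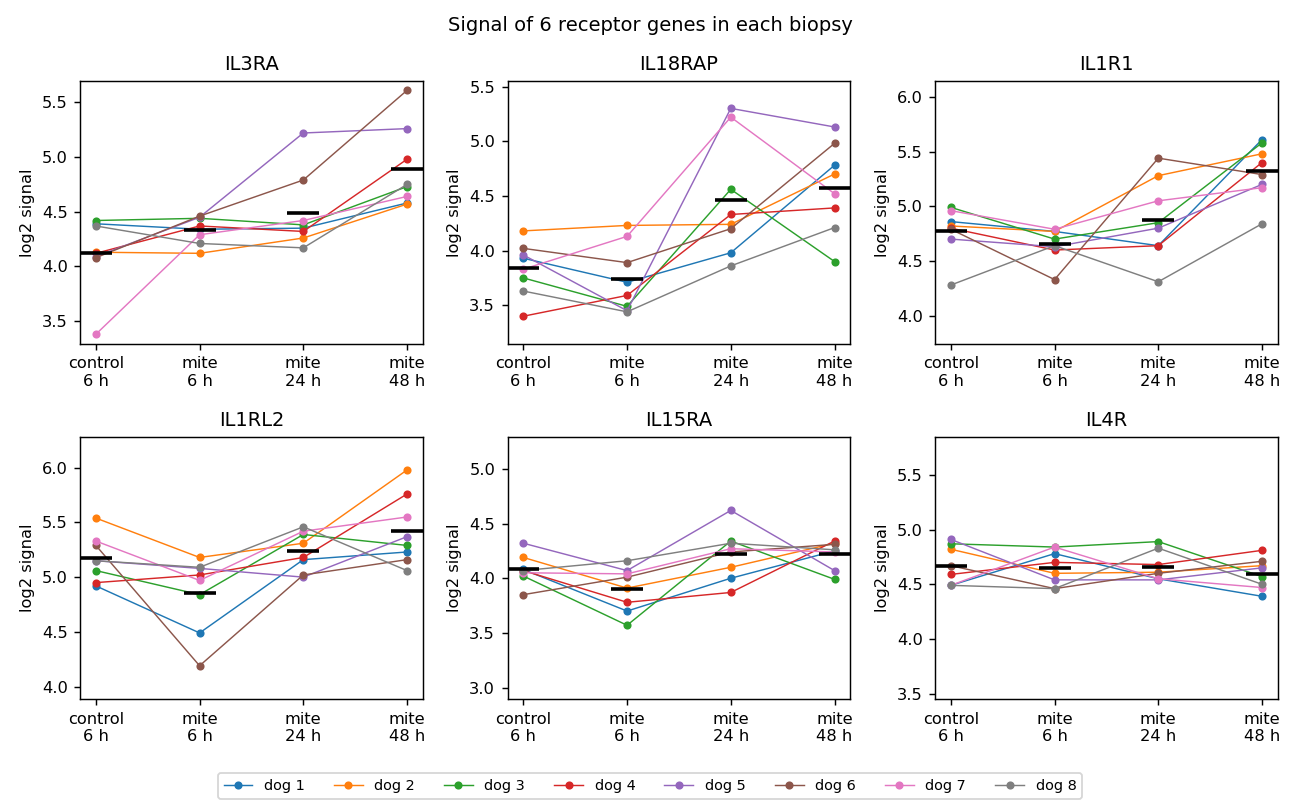
Log2 signal (y axis) of 6 receptor genes in each biopsy, from the 6 h control to 48 h after the mite; each coloured line is 1 dog and black bars are means of 8 dogs, with all panels spanning the same log2 range. IL3RA at 48 h (4.57 to 5.61) lies above its control range (3.38 to 4.42), and IL4R stays within 4.39 to 4.91. IL1RL2 and IL15RA have their lowest means at 6 h, where neither passed against the control in limma (adjusted p = 0.113 and 0.31).

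The other linked IL-1 family members did not pass against the control. IL1RL1, the IL-33 receptor also called ST2, read 3.01 to 3.38 in the control (median 3.21), 2.98 to 3.26 at 6 h (median 3.16), 2.80 to 3.34 at 24 h (median 3.03) and 3.03 to 3.31 at 48 h (median 3.13). It differed by -0.04 at 48 h (95% interval -0.17 to 0.09, adjusted p = 0.73), while the probe set of its ligand IL33 rose by 1.37 (SE 0.24, adjusted p = 0.000183). IL1RL2, the receptor for the epidermal IL-36 cytokines, was lowest at 6 h: 4.92 to 5.54 in the control (median 5.15), 4.19 to 5.18 at 6 h (median 4.99), 5.00 to 5.46 at 24 h (median 5.24) and 5.06 to 5.98 at 48 h (median 5.33). The 6 h value was lower in 7 of 8 dogs, by 0.32 on average (adjusted p = 0.113), and from 6 h to 24 h IL1RL2 rose by 0.38 (SE 0.11, adjusted p = 0.0152, 7 of 8 dogs). At 48 h it differed from the control by 0.25 (adjusted p = 0.103), which passed with array weights (0.30, adjusted p = 0.0305) or without dog 6 (0.31, adjusted p = 0.0403).

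IL15RA, which presents IL-15 to T cells and natural killer cells, also had its lowest median at 6 h. Its signal was 3.85 to 4.32 in the control (median 4.07), 3.57 to 4.16 at 6 h (median 3.96), 3.87 to 4.62 at 24 h (median 4.25) and 3.99 to 4.34 at 48 h (median 4.25). It rose by 0.31 from 6 h to 24 h (SE 0.09, adjusted p = 0.0131, 8 of 8 dogs) and differed by at most 0.17 from the control at any time. In this comparison of 24 h with 6 h, IL18RAP also rose (0.72, adjusted p = 0.00286), which makes 3 of 24 members, or 12.5%, against 17.3% of probe sets that passed (8.45% higher, 8.85% lower). All 3 calls ended when the actin gap entered the model (adjusted p = 0.152 for IL18RAP, 0.301 for IL1RL2 and 0.754 for IL15RA) and without the muscle-rich arrays, which leaves 6 arrays at 24 h and 3 at 6 h. The share of all probe sets that passed also went from 17.3% to 1.14% with the actin gap and to 0% without those arrays. The loss of calls was thus general to this comparison. Without those arrays the step was 0.69 for IL18RAP, 0.40 for IL1RL2 and 0.32 for IL15RA. With the actin gap in the model it was 0.69 for IL18RAP, 0.35 for IL1RL2 and 0.09 for IL15RA. Muscle markers and the actin gap were both highest at 6 h, and their part in the low 6 h values was not tested.

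The series title is about Th2 and itch pathways, and the linked receptors of Th2 cytokines passed at no time. IL4R, the chain that binds IL-4 and serves both IL-4 and IL-13, read 4.49 to 4.91 in the control (median 4.63), 4.46 to 4.84 at 6 h (median 4.65), 4.54 to 4.89 at 24 h (median 4.61) and 4.39 to 4.81 at 48 h (median 4.61). The groups overlapped almost wholly, and the 48 h difference was -0.07 (95% interval -0.23 to 0.09, adjusted p = 0.61). In the same biopsies the probe sets of the ligands IL4 and IL13 rose by 0.72 (adjusted p = 0.000364) and 2.48 (adjusted p = 1.42e-06). IL9R, the receptor chain for the mast cell growth factor IL-9, read 4.14 to 4.49 in the control (median 4.32), 4.22 to 4.45 at 6 h (median 4.41), 3.84 to 4.42 at 24 h (median 4.26) and 4.05 to 4.42 at 48 h (median 4.34). It differed by -0.01 at 48 h (95% interval -0.16 to 0.15), while IL9 rose by 3.31 (adjusted p = 3.22e-05).

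IL2RG, the common gamma chain that IL-2, IL-4, IL-7, IL-9, IL-15 and IL-21 share, read 2.65 to 3.13 in the control (median 2.89), 2.43 to 3.15 at 6 h (median 2.90), 2.87 to 4.71 at 24 h (median 3.02) and 2.83 to 3.30 at 48 h (median 3.08). The 24 h range is set by dog 5 at 4.71, with the next dog at 3.10. The 48 h difference was 0.17 (95% interval -0.15 to 0.49, adjusted p = 0.507). IL2RA, the inducible chain of the high-affinity IL-2 receptor and a mark of activated and regulatory T cells, read 2.90 to 3.52 at 48 h and 2.56 to 3.15 in the control, a difference of 0.22 (SE 0.08, adjusted p = 0.056). IL21R differed by 0.15 (adjusted p = 0.203).

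Members of the other families passed in none of the 5 comparisons. The IL-12 type chains IL12RB1, IL12RB2 and IL23R, which serve Th1 and Th17 cells, differed at 48 h by -0.02, 0.08 and 0.14, and none passed at any time. Of the IL-10 type chains, IL10RA differed by 0.05, IL20RB by 0.21 (adjusted p = 0.172), IL22RA1 by -0.04 and IL20RA by 0.01. IL20RA and IL20RB form the keratinocyte receptor for IL-19, IL-20 and IL-24. IL20RA had the largest SD between dogs of any member in the control, at 6 h and at 24 h, with values from 7.48 to 8.59 in the control, from 7.49 to 8.93 at 6 h, from 7.05 to 9.02 at 24 h and from 7.57 to 8.32 at 48 h. The IL-17 type chains IL17RC, IL17RD and IL17REL differed by 0.04, -0.06 and 0.03 at 48 h. IL17RE, the epithelial receptor chain for IL-17C, read 4.35 to 4.57 at 48 h and 4.49 to 4.66 in the control, lower in 7 of 8 dogs by 0.13 on average (SE 0.05, adjusted p = 0.0775). The authors' deposited table gives it a fold of -1.1 and an adjusted p of 0.034, values that match a plain linear model without the dog. In the 8 dogs of a group the members' SDs had a median of 0.17 in the control, 0.16 at 6 h and 0.20 at both 24 h and 48 h.

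The array of dog 5 at 24 h held the highest or lowest value of its group for 19 of the 24 members, while no other array did so for more than 9. It also had the lowest array median (4.64). The same count was not made over all probe sets, so whether it is particular to the members is not known. Without this array 1 member rose at 24 h and 4 rose at 48 h against the control, where 3.82% and 12.4% of all probe sets rose.

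For the 14 genes without a linked probe set the authors' deposited table gives folds and adjusted p-values alone. There 1 of them fell at 6 h, and 4 rose and 1 fell at 48 h. Where a gene was linked, its deposited values match a plain linear model that leaves out the dog. These 14 genes matched no probe set under that model, so the model behind their values is not known. Among the 17107 genes with deposited values 1.47% passed at 6 h (0.0643% higher, 1.4% lower). At 24 h 7.23% passed (2.85% higher, 4.38% lower), and at 48 h 20.7% (12.5% higher, 8.22% lower). Over all 38 receptor genes the authors' deposited table has 1 down at 6 h, 0 at 24 h, and 7 up and 2 down at 48 h.

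IL13RA1, which joins IL4R in the receptor for IL-13 and IL-4 on keratinocytes and fibroblasts, is the receptor gene with changes in both directions. In the authors' deposited table its fold was -1.6 at 6 h (adjusted p = 0.01), 1.2 at 24 h (adjusted p = 0.394) and 1.6 at 48 h (adjusted p below 0.001). IL27RA, the IL-27 receptor chain of lymphocytes, had deposited folds of -1.2, 1.2 and 1.4, with adjusted p = 0.005 at 48 h in the authors' deposited table. IL2RB, the signalling chain for IL-2 and IL-15, had a deposited 48 h fold of 1.3 (adjusted p = 0.002) and IL28RA, the interferon lambda receptor, of 1.2 (adjusted p = 0.028) in the authors' deposited table. IL1R2, a decoy that binds IL-1 without signalling, had a deposited 48 h fold of -1.6 (adjusted p = 0.044) in the authors' deposited table, opposite in sign to the signalling receptor IL1R1 (1.5, adjusted p = 0.004 there).

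IL31RA, the receptor chain for the itch cytokine IL-31, had a fold of 1.1 at each time in the authors' deposited table (adjusted p = 0.803, 0.363 and 0.64 from 6 h to 48 h). IL6ST, which encodes gp130, had 1.3 at 48 h (adjusted p = 0.103), and IL6R -1.1 (adjusted p = 0.206), in the authors' deposited table. IL7R, the receptor of IL-7 and of the alarmin TSLP, had -1.5 at 6 h (adjusted p = 0.537) and 1.3 at 48 h (adjusted p = 0.053) in the authors' deposited table. IL1RAP, the chain that IL-1, IL-33 and IL-36 receptors share, had -1.3 at 6 h (adjusted p = 0.223) and -1.1 at 48 h (adjusted p = 0.604) in the authors' deposited table. IL17RA, IL17RB, IL1RAPL1 and IL1RAPL2 had deposited folds between -1.1 and 1.2 in the authors' deposited table, none with an adjusted p under 0.05.

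**Figure D3:**
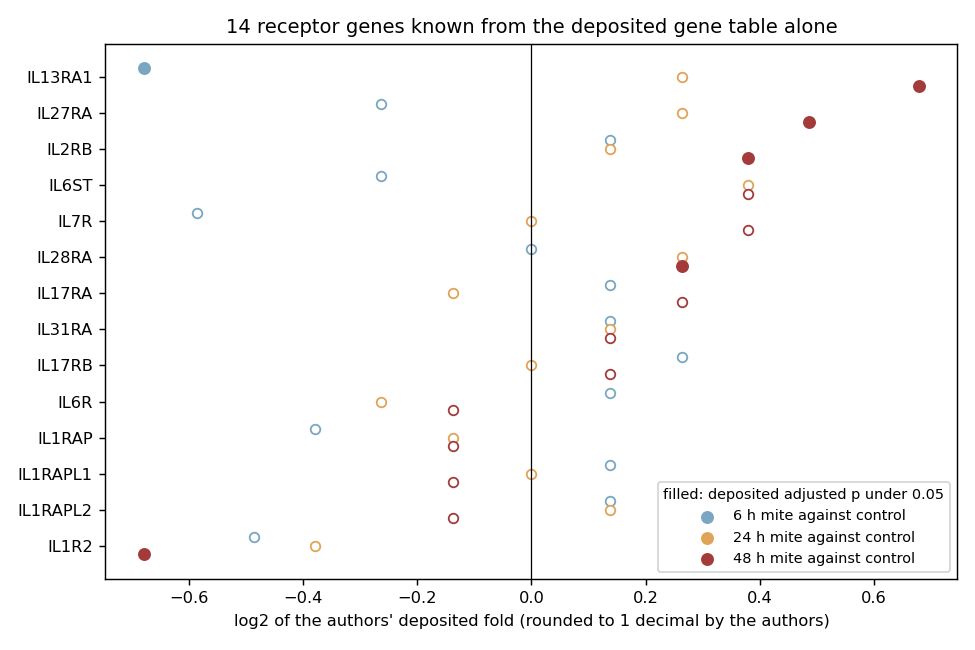
Log2 of the authors' deposited fold (x axis, made from folds rounded to 1 decimal) for the 14 receptor genes without a linked probe set, at 6 h (blue), 24 h (orange) and 48 h (red) against the control; filled points have a deposited adjusted p under 0.05. IL13RA1 is filled on both sides of 0, at folds of -1.6 at 6 h and 1.6 at 48 h, and IL1R2 is filled at -1.6.

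Gene order in the RefSeq annotation of the assembly UU_Cfam_GSD_1.0, in which 37 of the 38 genes were found by name, puts 6 of the IL-1 family next to each other with no other protein-coding gene between them: IL18RAP, IL18R1, IL1RL1, IL1RL2, IL1R1 and IL1R2. At 48 h the first 5 differed from the control by 0.74, 0.06, -0.04, 0.25 and 0.55, and IL1R2 had a fold of -1.6 in the authors' deposited table. Of these 5, IL18RAP and IL1R1 passed, at a time when 19.7% of all probe sets passed. IL3RA lies 2 protein-coding genes from CSF2RA, the GM-CSF receptor chain that also pairs with the common beta chain. CSF2RA rose by 1.42 at 48 h (SE 0.22, adjusted p = 4.36e-05), to 4.57 ± 0.92 against 3.16 ± 0.22 in the control (SD, n = 8). IL4R and IL21R, IL2RA and IL15RA, IL12RB2 and IL23R, and IL17RC and IL17RE are also direct neighbours, and none of these 8 passed against the control at 48 h in limma, although IL17RE was lower in the authors' deposited table as given above. IL31RA and IL6ST are neighbours too, and neither passed at 48 h in the authors' deposited table.

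Receptor chains whose names fall outside the interleukin pattern, the ligands and the signalling genes were set beside the members. At 48 h 10.6% of all probe sets were higher and 9.09% lower, with a median change of -0.02. Of 4 linked further chains 2 rose at 48 h, CSF2RA and SIGIRR, an inhibitory member of the IL-1 receptor family (0.33, adjusted p = 0.0217). OSMR, which pairs with IL31RA or gp130, differed by -0.69 at 6 h (adjusted p = 0.0745) and 0.31 at 48 h (adjusted p = 0.342), and CRLF2, the TSLP receptor chain, by 0.15 at 48 h (adjusted p = 0.136). From 6 h to 24 h OSMR rose by 1.11 (SE 0.21, adjusted p = 0.000812), as 1 of the 4 chains to pass there, where 8.45% of all probe sets were higher. This step of OSMR was not examined with the actin gap in the model or without the muscle-rich arrays. Of 36 linked ligand genes 11 rose and 1 fell at 48 h, with a median change of 0.18. The largest rises that passed were those of IL9, IL13, IL6 (2.03, adjusted p = 0.00936) and IL33, and the gene that fell, named after its value was seen, was IL37 (-1.12, adjusted p = 0.0245). Of 20 linked signalling genes 6 rose and 4 fell at 48 h (median 0.13). Among the rises were CISH, a STAT5-induced inhibitor of cytokine receptors (0.67, adjusted p = 0.000276), MYD88, the IL-1 receptor adaptor (0.62, adjusted p = 0.000135), JAK2 (0.60, adjusted p = 0.00345) and IRAK3, a brake on IL-1 signalling (0.44, adjusted p = 0.000611). The 4 that fell, also named after their values were seen, were PTPN11, TAB2, SOCS5 and IRS2, with differences of -0.33, -0.31, -0.29 and -0.24. At 6 h 1 ligand and 2 signalling genes fell, where 2.62% of all probe sets were lower and 0.275% higher. At 24 h 3 ligand genes rose and 0 fell, and 1 signalling gene rose and 2 fell. Over all probe sets 2.97% were higher and 5.22% lower at 24 h.

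**Figure D4:**
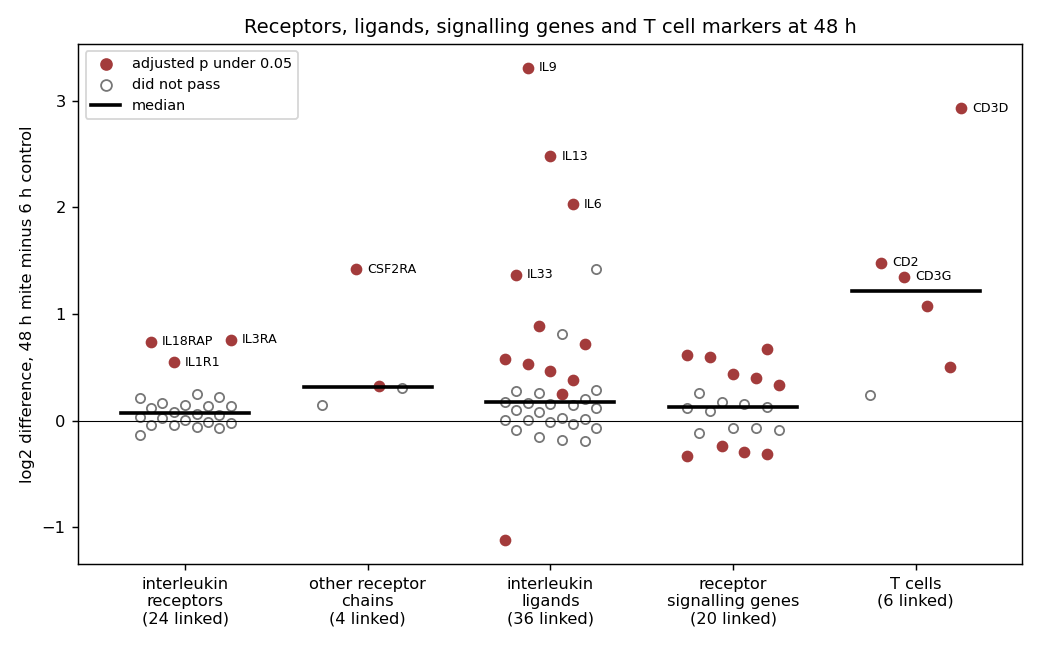
Log2 difference between 48 h mite and 6 h control skin (y axis) for linked interleukin receptors, other receptor chains, interleukin ligands, receptor signalling genes and T cell markers; each point is a gene, filled where adjusted p was under 0.05, and black bars are medians. The linked interleukin receptors reach 0.76, while CSF2RA reaches 1.42 among the other receptor chains, IL9 3.31 among ligands and CD3D 2.93 among T cell markers.

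Markers of several cell types changed alongside the receptor rises. Over all probe sets 2.97% were higher at 24 h, and 10.6% were higher and 9.09% lower at 48 h. Of 6 linked T cell markers 5 rose at 48 h and 1 at 24 h, and their mean signal was 3.83 to 4.26 in the control, 4.09 to 5.31 at 24 h and 4.56 to 6.24 at 48 h. All 4 linked macrophage and monocyte markers rose at 48 h (mean signal 6.91 to 8.16, against 5.58 to 6.62 in the control), as did all 5 linked dendritic cell markers (5.17 to 6.50, against 4.12 to 4.60). The other leukocyte lists were mixed at 48 h: the mast cell markers CPA3 and HDC rose by 1.38 and 0.70 and KIT fell by 0.38, the neutrophil marker S100A12 rose by 3.19, FPR2 fell by 0.24 and MPO differed by -0.19 (adjusted p = 0.0637), and the 1 linked eosinophil marker, EPX, differed by 0.06 (adjusted p = 0.689). Of the markers of skin structure, 4 of 5 linked adipocyte markers fell (median change -1.79), with a mean signal of 6.55 to 8.57 at 48 h against 8.65 to 9.99 in the control, and 2 of 4 muscle markers fell (median change -3.65). DCN alone of 4 fibroblast markers fell (-0.31), and of 3 endothelial markers PECAM1 fell (-0.85) and VWF rose (0.45). Of the 4 linked keratinocyte markers 0 passed in limma, with changes from -0.12 to 0.38. The part of these cells and tissues in the rises of IL3RA, IL18RAP and IL1R1 was not tested.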

How the data were processed

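Skin RNA from 8 dogs was measured on 32 arrays. The authors deposited log2 signals for 43035 probe sets; how they were normalized is not given in the sources used here. A second deposited file, the authors' gene table, gives signed folds, treated as a score, and adjusted p-values for 17107 genes, per the file headers. How the authors reduced probe sets to genes is not given there.

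For linking, each probe set was given a plain linear model of the 4 groups that leaves out the dog. A gene was linked where its 3 folds (within 0.05) and 3 adjusted p-values (within 0.001) matched exactly 1 probe set, which held for 10523 genes; 10512 (61.4%) were used. Of the linked probe sets, 5 members have the suffix _s_at, which can match several transcripts (IL1RL1, IL20RA, IL2RA, IL2RG, IL4R). Other probe sets of a gene were not analysed here.

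After 175 array controls were left out, limma 3.58.1 in R 4.3.3 fitted 42860 log2 values per array with the dog as a fixed block (21 residual degrees of freedom); p-values are 2-sided, Benjamini-Hochberg adjusted over all probe sets. The labels name the dog of each biopsy; deviations of same-dog arrays from their group means correlated at 0.16 on average over 48 pairs (-0.46 to 0.70). No 2 arrays were identical, and their number limits the precision.

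Members and gene lists were chosen with earlier results of these data known. Described in full are members that passed against the control, plus receptors of Th2, itch and alarmin cytokines (IL4R, IL5RA, IL9R, IL1RL1 and IL2RG among the linked); of ligands and signalling genes, the largest changes at 48 h that passed are named; IL15RA and IL1RL2 were added after their values were seen. Alternatives are covered in the closing section. No sequences are shown, as none were given.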

Additional observations from a re-analysis of the deposited data

Results flagged for a closer look

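In 11 of 96 groups of 8 dogs 1 sample stood apart from the rest by Dixon's test, where about 4.8 would be flagged by chance. After the mite these were IL12RB1 in dog 3 at 6 h (4.53, next dog 4.23), IL12RB2 in dog 6 at 6 h (3.25, next 3.77), IL1R1 in dog 6 at 6 h (4.33, next 4.60), IL17RC in dog 5 at 24 h (5.15, next 5.57), IL2RG in dog 5 at 24 h (4.71, next 3.10) and IL9R in dog 1 at 48 h (4.05, next 4.30). In the control they were IL17REL in dog 1 (5.14, next 5.52), IL1R1 in dog 8 (4.28, next 4.70), IL22RA1 in dog 6 (3.78, next 3.43), IL3RA in dog 7 (3.38, next 4.08) and IL5RA in dog 6 (3.66, next 3.20). Both values of dog 5 come from 1 array, the one with the lowest array median.

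Signal after the mite differed between times, by the limma test of 1 time against another, which has no control at each time and so does not test the effect of the mite, for IL18RAP (0.72), IL1RL2 (0.38) and IL15RA (0.31) at 24 h against 6 h, and for IL1R1 (0.44) at 48 h against 24 h.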

How the results depend on the processing

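The 48 h rises of IL3RA (0.64 to 0.85, adjusted p at most 0.00505) and IL18RAP (0.59 to 0.82, adjusted p at most 0.0202) passed in each of 19 alternatives, and that of IL1R1 (0.33 to 0.60) in 19 of 20. No call was reversed in any alternative. Counts of members are given with the share of all probe sets that had the same call in that fit. With dim probe sets left out, which keeps 5 members, the counts were 0 rises at 24 h (6.6%), 1 at 48 h (18.6%) and 1 member at 24 h against 6 h (29.1%). With array weights they were 2 rises at 24 h (5.73%), 5 rises (13.6%) and 1 fall (12.3%) at 48 h, and 2 members at 48 h against 24 h (3.69%). Without the muscle-rich arrays 0 members rose at 24 h (1.51%), and 0 passed at 24 h against 6 h (0%, while 5 members and 11.3% of probe sets had an unadjusted p under 0.05 in limma) or at 48 h against 24 h (0.483%). The muscle covariate left 1 member at 24 h against 6 h (8.26%), and the actin covariate 0 there (1.14%) and 0 at 48 h against 24 h (0.733%). At 48 h against 24 h the count was 0 without the replicate block (1.08%), 0 with only the 2 groups (1.01%), and 2 with the dog as a random effect (2.07%); leaving out the block moved no other count by more than 1.5 times, and of the receptor genes named with alternatives only IL1R1 at 48 h against 24 h lost its call (0.44, adjusted p = 0.0751). Leaving out 1 dog gave 0 to 1 rises at 24 h (1.67% to 3.31%), with 0 without dog 4 (2.15%) or 7 (1.85%). It gave 3 to 4 rises at 48 h (8.49% to 10.3%). At 24 h against 6 h it gave 1 to 3 members (10.2% to 17.8%), with 1 without dog 3 (10.2%). At 48 h against 24 h it gave 0 to 2 members. That count was 0 without dog 1 (1.15%), 3 (2.41%), 4 (0.63%) or 5 (0.576%) and 2 without dog 7 (3.8%). Leaving out the 24 h array of dog 5, chosen after seeing the data, gave 2 for that last count (1.48%). The causes were not tested. Dim signal limits 19 of the 24 members, and the 14 genes without a linked probe set could not be tested again.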
